A study of Homo sapiens with 6 samples.

Results

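Ribosome biogenesis and nucleolar genes were examined as a set of 38 genes, picked by symbol from the count tables as factors that transcribe, modify and assemble ribosomal RNA. All 38 were found among the 19923 protein-coding genes of each table, and all 38 passed the filter on low counts that left 15311 genes for testing. The libraries came from Kelly cells, an established human neuroblastoma line labelled as MYCN-amplified and of wild-type genotype. They were collected 72 hours after lipid transfection of either a control siRNA (siControl, 3 libraries) or an siRNA directed at METTL3 (siMETTL3, 3 libraries). METTL3 is the catalytic subunit of the enzyme complex that writes m6A, a methyl mark on adenosines of mRNA. Every library carries a transfected siRNA, and the model is a single cell line with a partial, transient knockdown. Nothing in the labels says that replicates were separate cultures, so the tests measure the spread between these libraries, which may be technical.

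Ribosomes are built mainly in the nucleolus. RNA polymerase I copies the ribosomal DNA into a long precursor RNA, small nucleolar ribonucleoproteins (snoRNPs) guide the methylation and pseudouridylation of that precursor, and large sets of assembly factors and helicases fold and cut it while ribosomal proteins join. Growing cells spend much of their transcription on this pathway, and MYC family proteins such as MYCN are known activators of many of its genes.

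Total counts ranged from 15430000 to 21565013 per library, and each of the 38 genes had between 264 and 11788 raw counts in every library. Values are given as CPM, which are read counts relative to the library's total after TMM scaling, a correction for differences in composition between libraries. METTL3 itself stood at 53.5, 52.8 and 56.2 CPM in the siControl libraries and at 32.99, 31.8 and 34.3 CPM in the siMETTL3 libraries, which was 61.0% of the control level in the fit. Of 9 markers of sympathetic neuroblasts, all had at least 119 CPM in every library, while the summed level of the marker lists of blood, epithelial, endothelial and fibroblast cells was at most 14.7 CPM. MYCN, with a mean of 3021 CPM in siControl and 4638 CPM in siMETTL3, is among the neuroblast markers and makes up much of their sum. The summed neuroblast markers lay between 6752 and 7397 CPM in siControl and at 9872 CPM or more in siMETTL3. The sums of fibroblast markers (8.51 to 11.6 CPM in siControl, 12.3 to 14.7 CPM in siMETTL3) and endothelial markers (1.70 to 2.09 CPM and 0.486 to 1.47 CPM) also did not overlap between the groups; the part of these shifts in the results was not tested. The shallowest library, siControl replicate 3, lay farthest from the others on the first principal component, at -37.0 against -18.0 and -24.4 for the other siControl libraries.

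Depletion of METTL3 was accompanied by small falls across much of the set. Of the 38 genes, 17 (44.7%) were lower in siMETTL3 by edgeR at a false discovery rate (FDR) under 0.05, where 19.2% of all tested genes were called lower. The tested genes were not matched to the set in read count, and small changes are harder to call at low counts. edgeR called 0 of the 38 higher, where 18.6% of all tested genes were, and 0 had an unadjusted p under 0.05 in that direction. DESeq2 called 16 lower and 0 higher (17.9% and 17.8% of all tested genes), and limma-voom called 17 lower and 0 higher (19.1% and 18.8%). The log2 fold changes ran from -0.47 to 0.15 with a median of -0.15, against -0.0021 for all tested genes. No gene of the set was called with a change of at least 2-fold, as 3.35% of all tested genes were. The 17 called genes fell by between 9.52% and 27.6%.

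The values per library showed the same picture without a model. In 20 of the 38 genes every siMETTL3 library lay below every siControl library, against 25.1% of all tested genes. In 1 gene, RRS1, every siMETTL3 library lay above, against 24.8% of all tested genes, and in 17 genes the groups overlapped. Summed over the 38 genes, the level was 5797, 5971 and 6520 CPM in the siControl libraries and 5229, 5409 and 5276 CPM in the siMETTL3 libraries. The siMETTL3 mean was 87.0% of the siControl mean, and 90.1% of it without siControl replicate 3. In a bulk sample, fewer cells that express a gene and less of its RNA in each cell cannot be told apart.

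**Figure D1:**
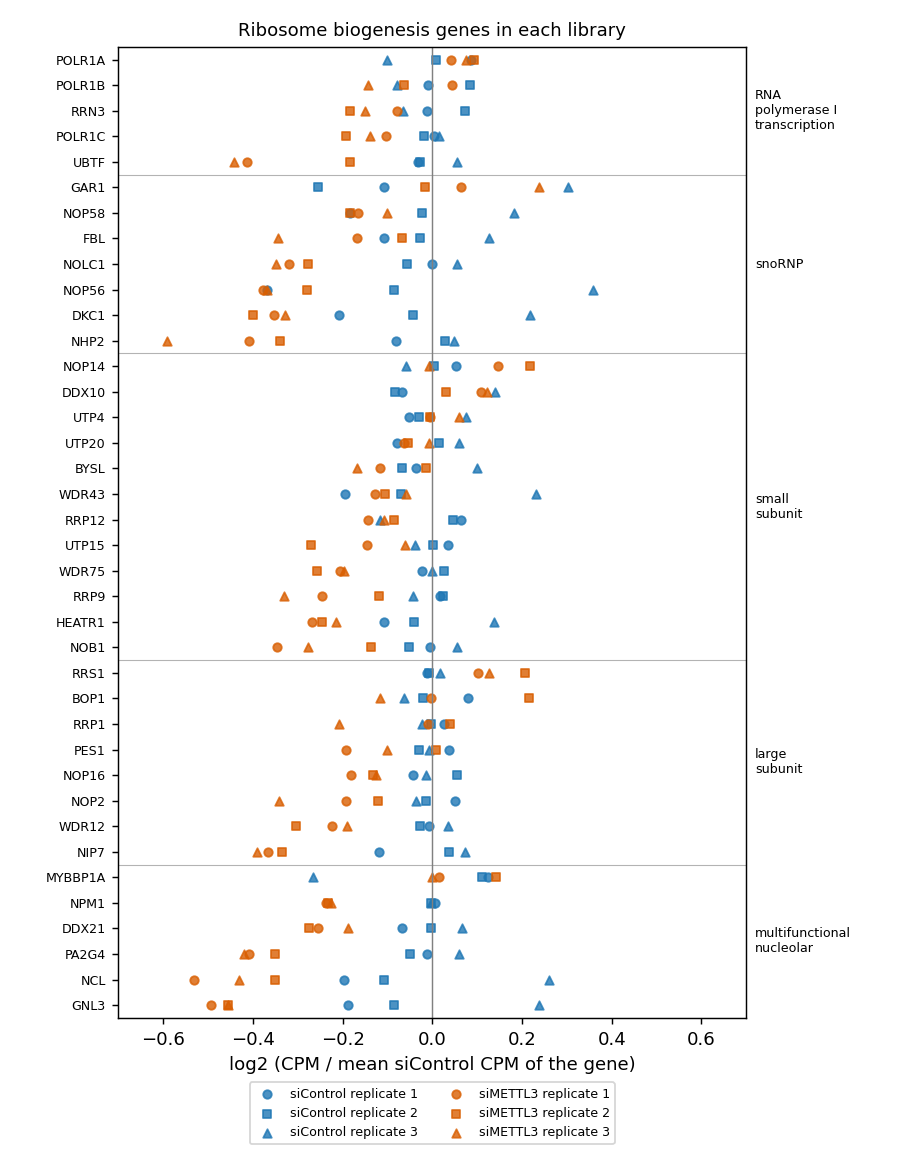
Level of each of the 38 genes in each library, as log2 of its CPM over the gene's mean siControl CPM, grouped by role in ribosome biogenesis (vertical axis). Points stand for single libraries, blue for siControl and orange for siMETTL3, with a symbol for each replicate number; in 20 genes the 3 orange points all lie left of the 3 blue points.

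The RNA polymerase I group was uneven. Of its 5 genes, 2 were called lower, UBTF and POLR1C, and 3 were not called. UBTF (chromosome 17, 44205033 to 44221626) encodes the upstream binding factor, an architectural protein that keeps ribosomal DNA open for the polymerase. It measured 188, 188 and 199 CPM in siControl and 144, 169 and 141 CPM in siMETTL3. The groups did not overlap, although siMETTL3 replicate 2 stood closer to the controls than the others did. Its log2 fold change was -0.34 with a standard error (SE) of 0.070 (edgeR FDR 0.0017).

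The catalytic subunits POLR1A and POLR1B were not called. POLR1A, the largest catalytic subunit, measured 139, 131 and 122 CPM in siControl and 135, 139 and 138 CPM in siMETTL3, and the groups overlapped (log2 fold change 0.068, SE 0.060, edgeR FDR 0.40). POLR1B, the second subunit of the catalytic core, had a log2 fold change of -0.053. RRN3, the factor that brings the polymerase to its promoter, had a log2 fold change of -0.14 (edgeR FDR 0.13), and its whole span lies within that of PDXDC1. POLR1C is shared between RNA polymerases I and III. It measured 216, 212 and 218 CPM against 200, 188 and 196 CPM, with no overlap and a log2 fold change of -0.14 (SE 0.053, edgeR FDR 0.046). That call was lost in 5 of the 6 fits that each left out a library, with FDR values up to 0.17, and in DESeq2 (FDR 0.064). Up to 76.0% of the POLR1C span is shared with another gene of the table, and its overlapping neighbours XPO5 and YIPF3 had log2 fold changes of -0.25 and 0.62, so some reads are counted for more than 1 gene.

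Among the 7 snoRNP genes, 3 were called lower and the other 4 were not called. Box C/D snoRNPs carry the methyltransferase fibrillarin and box H/ACA snoRNPs carry the pseudouridine synthase dyskerin. NHP2 (chromosome 5, 178149460 to 178153967), a core protein of the H/ACA particles, measured 87.0, 93.8 and 95.04 CPM in siControl and 69.2, 72.6 and 61.0 CPM in siMETTL3. The lowest control lay well above the highest siMETTL3 library, and the log2 fold change was -0.44 (SE 0.072, edgeR FDR 0.00033). A stretch of 24.6% of its span is shared with RMND5B (log2 fold change -0.30). NOLC1, which encodes the snoRNP chaperone Nopp140, measured 203, 195 and 211 CPM against 163, 168 and 160 CPM. The groups were again separate, with a log2 fold change of -0.31 (SE 0.055, edgeR FDR 0.00058). DKC1, which encodes dyskerin, fell as well (log2 fold change -0.36, SE 0.088, edgeR FDR 0.0070), and by less without siControl replicate 3 (-0.24, edgeR FDR 0.0010). GAR1, the remaining H/ACA protein of the set, went from 24.1 ± 4.99 (SD, n = 3) to 25.8 ± 2.36 CPM (SD, n = 3) and was not called (log2 fold change 0.11, edgeR FDR 0.55). Without siControl replicate 3, GAR1 was called higher (log2 fold change 0.27, edgeR FDR 0.027).

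The 3 box C/D core proteins of the set, FBL, NOP56 and NOP58, were not called. SNU13, the remaining core protein of these particles and a gene of the wider list described further on, was called lower (log2 fold change -0.19, edgeR FDR 0.015). NOP10, a core protein of the H/ACA particles on that same list, was not called (log2 fold change -0.10, edgeR FDR 0.50). FBL, which encodes fibrillarin, measured 138, 146 and 163 CPM in siControl and 133, 142 and 117 CPM in siMETTL3. The groups overlapped, and the log2 fold change of -0.19 (SE 0.078) missed the threshold (edgeR FDR 0.074). It passed when siControl replicate 1 or siMETTL3 replicate 2 was left out (edgeR FDR 0.016 and 0.046), and its log2 fold change was -0.12 without siControl replicate 3 or siMETTL3 replicate 3 (edgeR FDR 0.14 and 0.31). NOP56 measured 231, 282 and 383 CPM in siControl against 230, 246 and 231 CPM in siMETTL3. The controls were widely spread, and the log2 fold change of -0.34 had an SE of 0.18 (edgeR FDR 0.20). Without siControl replicate 1 NOP56 was called lower (-0.49, edgeR FDR 0.010), and without siControl replicate 3 its log2 fold change was -0.12 (edgeR FDR 0.14). NOP58 measured 193, 216 and 249 CPM against 196, 193 and 205 CPM, with siControl replicate 3 again the highest and a log2 fold change of -0.15 (edgeR FDR 0.16). It too was called lower without siControl replicate 1 (-0.23, edgeR FDR 0.0067) and stood at -0.049 without siControl replicate 3 (edgeR FDR 0.51).

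NOP56, NOP58 and DKC1 share a feature that the choice of genes did not use: each holds snoRNA genes within its span. snoRNAs of vertebrates are mostly released from introns of such host genes, and the deposited counts cover introns. GENCODE release 44 places 24 snoRNA genes inside the spans of 7 of the 38 genes on the same strand. They comprise 17 box C/D and 4 box H/ACA snoRNAs and 3 entries without a snoRNA name. The hosts are POLR1C, NOP56, NOP58, DKC1, WDR43, NCL and GNL3. An example from each of 5 hosts is printed here because these sequences lie inside the regions whose reads were counted. The sequences are those of the GENCODE transcripts on GRCh38, 5′ to 3′; capitals mark the first match to the box C core TGATGA and the last match to the box D sequence CTGA.
SNORD57 (in NOP56, chr20:2656939-2657010, plus strand): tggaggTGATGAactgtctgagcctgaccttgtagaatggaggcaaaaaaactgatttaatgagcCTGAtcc
SNORD11 (in NOP58, chr2:202293051-202293134, plus strand): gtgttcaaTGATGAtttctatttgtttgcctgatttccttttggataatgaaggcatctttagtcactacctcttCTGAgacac
SNORD53 (in WDR43, chr2:28927067-28927144, plus strand): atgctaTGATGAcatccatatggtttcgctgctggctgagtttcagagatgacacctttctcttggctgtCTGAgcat
SNORD20 (in NCL, chr2:231456444-231456523, minus strand): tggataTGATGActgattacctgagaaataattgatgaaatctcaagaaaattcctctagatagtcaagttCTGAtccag
SNORD69 (in GNL3, chr3:52692736-52692812, plus strand): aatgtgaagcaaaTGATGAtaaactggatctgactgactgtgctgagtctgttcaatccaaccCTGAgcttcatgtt

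The 7 host genes were set against the other 31, a split chosen after the values had been seen. siControl replicate 3 was the highest of the 6 libraries in all 7 hosts and in 15 of the other 31 genes. On the log2 scale its level over the mean of the other siControl libraries had a median of 0.36 in the 7 hosts (from 0.023 in POLR1C to 0.58 in NOP56) and of 0.028 in the other 31 genes of the set (from -0.38 to 0.48, the highest being GAR1). Over all tested genes with a snoRNA gene in their span (n = 265) the same quantity had a median of 0.14, against -0.0100 for the 15046 tested genes without. The median log2 fold change of the 7 hosts was -0.34 with all libraries and -0.14 without siControl replicate 3. For the other 31 genes it was -0.15 and -0.17. Among the hosts 4 genes were called lower in either fit; without that library edgeR called 20.7% of all tested genes lower and 19.8% higher. The siControl library that stood out was also the shallowest; the part of depth or of intron reads in the host genes' levels was not tested.

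**Figure D2:**
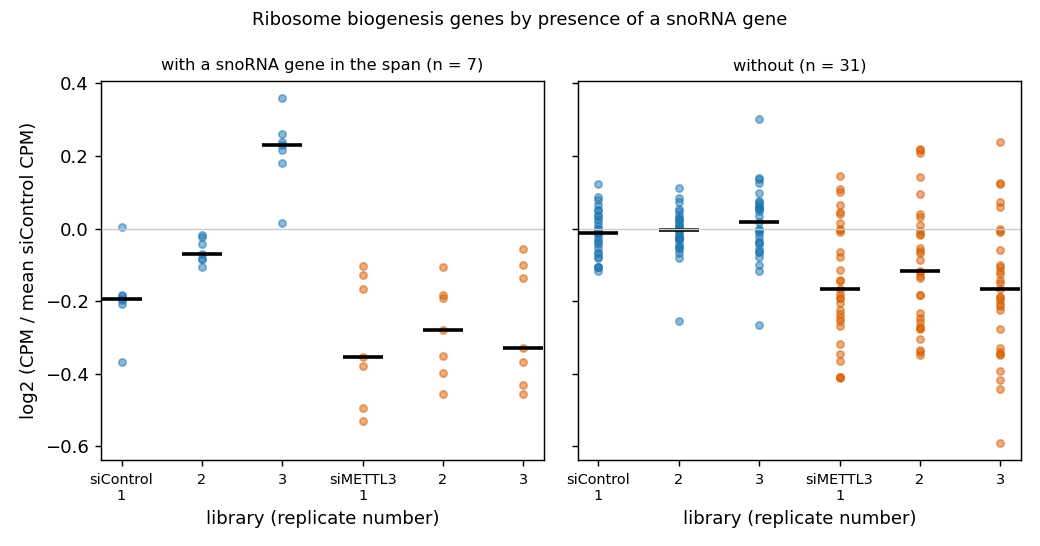
The 38 genes split by whether a snoRNA gene lies in the span (left, 7 genes; right, 31 genes), with log2 of CPM over the mean siControl CPM on the vertical axis and the 6 libraries on the horizontal axis. Points are genes and black bars are medians; in the left panel siControl replicate 3 has a median of 0.23 and the siMETTL3 libraries lie between -0.35 and -0.28, while in the right panel the siControl medians stay between -0.011 and 0.019.

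Of the 12 small subunit genes, 4 were called lower and 8 were not called. Most of them belong to the small subunit processome, the assembly on the early precursor that yields the small ribosomal subunit. HEATR1, a large scaffold of the processome, measured 306, 320 and 362 CPM in siControl and 274, 278 and 284 CPM in siMETTL3. The groups did not overlap (log2 fold change -0.24, SE 0.065, edgeR FDR 0.0098), and the call was lost without siMETTL3 replicate 1 (edgeR FDR 0.058). LGALS8 (log2 fold change -0.30) shares 7.16% of its span. WDR75, another processome protein, measured 108, 112 and 110 CPM against 95.5, 92.1 and 96.1 CPM. Its libraries were tight within each group (log2 fold change -0.22, SE 0.055, edgeR FDR 0.0066), and it was called in all 6 fits that left out a library.

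RRP9 and NOB1 were the other called genes of this group. RRP9, a protein of the U3 snoRNP, had a log2 fold change of -0.23 (edgeR FDR 0.017). NOB1, the endonuclease that makes the final cut at the end of the small subunit RNA, had a log2 fold change of -0.25 (edgeR FDR 0.016). Both calls were lost without siMETTL3 replicate 1 (edgeR FDR 0.071 for RRP9 and 0.096 for NOB1) and without siMETTL3 replicate 3 (edgeR FDR 0.090 and 0.064), and RRP9 also without siControl replicate 2 (edgeR FDR 0.069).

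The 8 uncalled small subunit genes ranged from -0.16 in UTP15 to 0.12 in NOP14. WDR43 measured 325, 354 and 436 CPM in siControl and 340, 345 and 357 CPM in siMETTL3. It is a snoRNA host, and without siControl replicate 1 it was called lower (-0.18, edgeR FDR 0.049). Its log2 fold change went from -0.096 to 0.033 without siControl replicate 3. DDX10, an RNA helicase, had a log2 fold change of 0.088 and was called higher without that library (0.16, edgeR FDR 0.013), whereas RRP12, a factor of late small subunit precursors, was called lower without it (-0.17, edgeR FDR 0.012). UTP4, UTP20 and BYSL had log2 fold changes of 0.017, -0.041 and -0.095.

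In the large subunit group 3 of 8 genes were called lower and 5 were not called. NIP7 (chromosome 16, 69337996 to 69343106), which acts in early maturation of ribosomal RNA, measured 46.5, 51.8 and 53.1 CPM in siControl and 39.2, 40.01 and 38.5 CPM in siMETTL3. The groups were separate, with a log2 fold change of -0.36 (SE 0.073, edgeR FDR 0.0015). The whole NIP7 span is covered by another gene of the table, and COG8, which overlaps it, had a log2 fold change of -0.33, so their reads are partly the same. WDR12 measured 137, 135 and 141 CPM against 118, 112 and 121 CPM (log2 fold change -0.24, SE 0.056, edgeR FDR 0.0044), also without overlap between the groups.

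WDR12 works in a complex with PES1 and BOP1 that is needed to process the large subunit RNA, and the other 2 members were not called. PES1 had a log2 fold change of -0.093 (edgeR FDR 0.26) and BOP1 of 0.038 (edgeR FDR 0.74). Whether WDR12 changed differently from its partners was not tested. The span of WDR12 is 54.3% shared with CARF, which stood at 11.03 CPM in siControl, while that of BOP1 shares 6.90% with SCX.

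NOP2, a methyltransferase of the large subunit RNA, fell by 0.22 on the log2 scale (edgeR FDR 0.022). The call did not hold in 3 fits, those without siControl replicate 2 (edgeR FDR 0.062), without siMETTL3 replicate 1 (0.063) and without siMETTL3 replicate 3 (0.12). A stretch of 99.8% of the NOP2 span is shared with AC006064.6. That gene had a mean of 532 CPM in siControl and a log2 fold change of -0.059. RRS1, which helps to bring the 5S particle into the large subunit, measured 17.2, 17.2 and 17.5 CPM in siControl and 18.6, 20.0 and 18.9 CPM in siMETTL3. All siMETTL3 libraries were above all siControl libraries, yet the log2 fold change of 0.15 was not past the threshold (SE 0.091, edgeR FDR 0.22). NOP16 and RRP1 had log2 fold changes of -0.15 and -0.055.

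The nucleolar proteins with several roles had 5 of 6 genes called lower, the highest share among the role groups. These groups hold only 5 to 12 genes each, and 19.2% of all tested genes were called lower. GNL3 (chromosome 3, 52681156 to 52694497) encodes nucleostemin, a GTP-binding protein of the nucleolus of dividing cells. It measured 154, 165 and 207 CPM in siControl and 124, 128 and 128 CPM in siMETTL3. With all 6 libraries this was the largest fall of the set, with a log2 fold change of -0.47 (SE 0.091, edgeR FDR 0.0019). Without siControl replicate 3 it was -0.33 and still called (edgeR FDR 9.1e-06), a smaller fall than those of NHP2 (-0.42) and PA2G4 (-0.36). Up to 35.7% of the GNL3 span is shared with another gene, and the overlapping genes PBRM1 and GLT8D1 had log2 fold changes of -0.28 and -0.35.

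NCL (chromosome 2, 231453531 to 231483641) encodes nucleolin, which binds nascent ribosomal RNA. It measured 525, 559 and 721 CPM in siControl and 416, 472 and 446 CPM in siMETTL3. The highest value was again that of siControl replicate 3, and the log2 fold change of -0.44 (SE 0.11, edgeR FDR 0.0097) became -0.29 without it (edgeR FDR 4.3e-05). PA2G4, which encodes the growth-associated protein EBP1, had the smallest FDR of the set. It measured 167, 163 and 176 CPM in siControl and 127, 132 and 126 CPM in siMETTL3 (log2 fold change -0.39, SE 0.056, edgeR FDR 0.00012), and 50.7% of its span is shared with AC034102.2 (log2 fold change -0.45).

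NPM1 (chromosome 5, 171387116 to 171411137) encodes nucleophosmin, a chaperone that makes up much of the granular part of the nucleolus. Its libraries agreed closely within each group, at 547, 543 and 543 CPM in siControl and 462, 463 and 465 CPM in siMETTL3. The log2 fold change was -0.23 (SE 0.052, edgeR FDR 0.0031), and the call held in all 6 fits that left out a library. NPM1 has many processed copies elsewhere in the genome, and the file headers set no option for reads that map to several places, so its level is uncertain. DDX21, a nucleolar RNA helicase, fell to a like extent (log2 fold change -0.24, SE 0.057, edgeR FDR 0.0048). MYBBP1A, a nucleolar partner of MYB, was the exception, at 166, 165 and 127 CPM in siControl and 154, 169 and 153 CPM in siMETTL3 (log2 fold change 0.052, edgeR FDR 0.70).

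**Figure D3:**
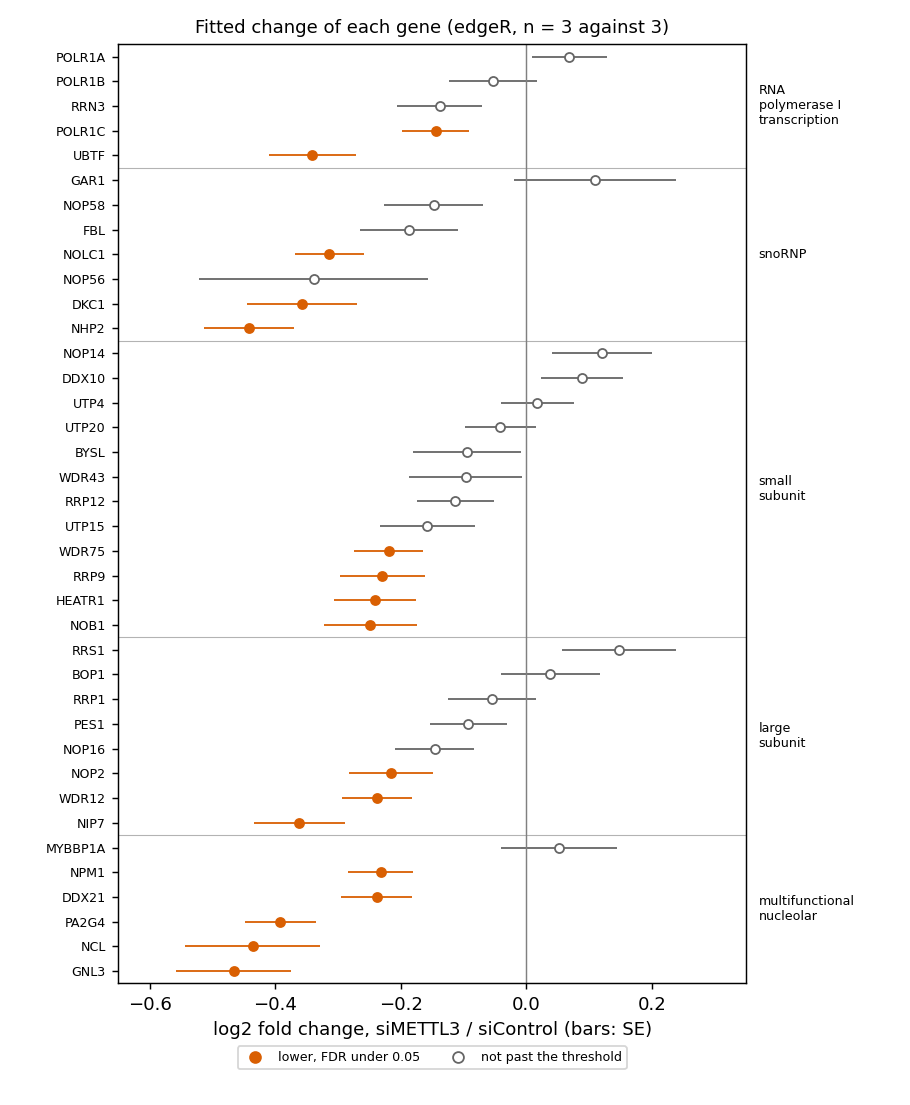
Log2 fold change of siMETTL3 over siControl for each of the 38 genes from edgeR, with bars of 1 SE, grouped by role (vertical axis). Filled orange points are the 17 genes lower at an FDR under 0.05 and open points the 21 genes not past the threshold; the called genes lie between -0.47 and -0.14.

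The calls differed in how firmly they stood. Of the 17, 12 were called in all 6 fits that left out a library, and the other 5 were POLR1C, HEATR1, RRP9, NOB1 and NOP2. The share of all called genes that held in all 6 fits was not worked out. These fits also have most of their libraries in common. The number called lower was between 12 (without siMETTL3 replicate 1, where 13.7% of all tested genes were called lower) and 20 (without siControl replicate 1, where 20.8% were). Of the 17, 8 have spans that overlap another gene of the table, so that reads can be shared. In a fit on genes without such overlaps, 9 of 22 genes of the set were lower, against 19.9% of the genes tested there.

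Genes called in both directions were found on a wider list of 124 other ribosome biogenesis genes. These were picked from general knowledge, with earlier results of these data known. Of these, 35 (28.2%) were called lower and 9 (7.26%) higher in edgeR, against 19.2% and 18.6% of all tested genes, with a median log2 fold change of -0.075. Large subunit factors had 16 of 45 lower and 2 higher, small subunit factors 11 of 42 lower and 4 higher, and exosome and exonuclease genes 6 of 15 lower and 0 higher. Of 12 further snoRNP genes 1 was lower and 2 were higher, and of 10 further RNA polymerase I genes 1 was lower (POLR1E, log2 fold change -0.27) and 1 higher (CD3EAP, 0.23, with up to 75.3% of its span shared with another gene). Without siControl replicate 3 the number called higher was 16, where 19.8% of all tested genes were. It was 4 when siControl replicate 2 or either of the first 2 siMETTL3 replicates was left out, and 5 without siMETTL3 replicate 3, where 14.1%, 13.5%, 13.8% and 14.3% of all tested genes were called higher. The number called lower was 23 without siMETTL3 replicate 1 and 22 without siMETTL3 replicate 2, where 13.7% and 14.3% of all tested genes were.

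The largest falls on that list were those of NOP53, EXOSC4 and RSL24D1. NOP53, a late factor of the large subunit, went from 279 ± 22.9 (SD, n = 3) to 181 ± 19.0 CPM (SD, n = 3), a log2 fold change of -0.62 (edgeR FDR 6.9e-05). EXOSC4, a subunit of the RNA exosome, and RSL24D1, a placeholder protein of the large subunit precursor, had log2 fold changes of -0.49 and -0.48. The largest rise was that of PELP1, a scaffold of a complex that acts in the maturation of the large subunit. It measured 63.1, 60.9 and 48.5 CPM in siControl and 100, 108 and 97.2 CPM in siMETTL3 (log2 fold change 0.82, edgeR FDR 1.7e-05). RIOK1, a kinase of the small subunit precursor, and NOL10, a processome protein, rose by 0.34 and 0.33 on the log2 scale (edgeR FDR 0.0089 and 0.00095).

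mRNAs of the ribosomal proteins, which these factors help to join to the RNA, were counted in the same libraries. Of 79 cytosolic ribosomal protein genes, 68 were called lower, 0 higher and 11 not called in edgeR. Over all tested genes, 19.2% were called lower and 18.6% higher. The median log2 fold change of the 79 genes was -0.44. As for NPM1, the file headers set no option for reads that map to several places, so levels on this list are uncertain. That list was also raised in siControl replicate 3, by a median of 0.21 on the log2 scale over the mean of the other siControl libraries, against 0.077 for the 38 genes. The difference between the lists was not tested.

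**Figure D4:**
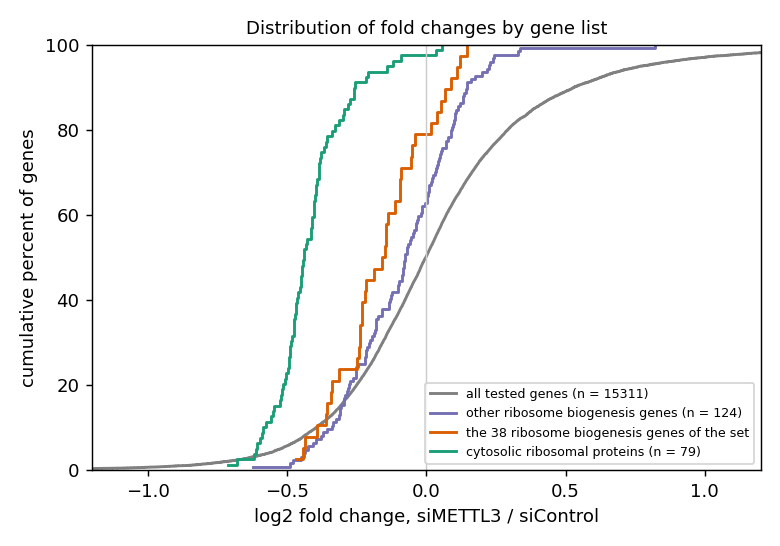
Cumulative percent of genes (vertical axis) at or below a given log2 fold change of siMETTL3 over siControl (horizontal axis, drawn from -1.2 to 1.2) for 4 lists. The medians are -0.44 for ribosomal proteins, -0.15 for the 38 genes, -0.075 for the other ribosome biogenesis genes and -0.0021 for all tested genes.

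MYCN, a known activator of this pathway, was higher in siMETTL3. It measured 3036, 3147 and 2880 CPM in siControl and 4443, 4726 and 4743 CPM in siMETTL3. Its log2 fold change was 0.62 (SE 0.061, edgeR FDR 5.2e-06).

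The hexamer CACGTG, the canonical E-box that dimers of MYC family proteins and MAX bind, was looked up in RefSeq promoters (GRCh38.p14, 250 bases before to 50 after each listed start). Promoters were listed for 33 of the 38 genes. The hexamer, which reads the same on both strands, was present for 13 of them (39.4%), against 12.05% of the 11813 tested genes with a listed promoter. In 9 genes it began between 4 and 36 bases into the transcript, and in 4 it began between 5 and 31 bases before the start. For comparison, CACGCG on either strand was found for 36.4% of the set and 21.3% of the tested genes, and CCGGAAG for 30.3% and 20.1%; these motifs were searched separately and may overlap each other.

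Genes of the set were called lower both with and without the hexamer, where 19.2% of all tested genes were called lower. The share called lower among all tested genes with or without the hexamer was not worked out. Of the 13 genes with it, 4 were called lower and the median log2 fold change was -0.095. Of the 20 genes whose listed promoters lack it, 12 were called lower and the median was -0.24; the difference was not tested. The stretches below show the hexamer in capitals with its neighbouring bases, 5′ to 3′ on the strand of the gene, first for the 4 genes that were called lower and then for 4 genes with a log2 fold change above 0. A match is a description of these letters only.
GNL3 (chr3:52686026-52686055, log2 fold change -0.47): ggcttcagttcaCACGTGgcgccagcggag
DDX21 (chr10:68956604-68956633, log2 fold change -0.24): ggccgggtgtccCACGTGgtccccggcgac
RRP9 (chr3:51941892-51941921, log2 fold change -0.23): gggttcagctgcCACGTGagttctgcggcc
NOP2 (chr12:6568242-6568268, log2 fold change -0.22): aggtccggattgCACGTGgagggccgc
NOP14 (chr4:2963374-2963403, log2 fold change 0.12): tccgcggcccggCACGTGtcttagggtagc
GAR1 (chr4:109815781-109815810, log2 fold change 0.11): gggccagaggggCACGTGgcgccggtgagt
MYBBP1A (chr17:4555340-4555369, log2 fold change 0.052): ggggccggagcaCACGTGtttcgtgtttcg
UTP4 (chr16:69132621-69132650, log2 fold change 0.017): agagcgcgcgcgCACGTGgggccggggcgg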

How the data were processed

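The authors deposited raw read counts per gene, 1 table per library. Per the file headers, they were made with featureCounts v1.5.3 on a protein-only GENCODE release 33 annotation. Reads were assigned to whole genes from start to end, so that introns contribute, reads in overlaps went to every gene there, and strand was ignored. The submitters' processing notes name FastQC 0.11.5, Trimmomatic 0.36, HISAT2 2.1.0 and GRCh38. The headers also carry the words picard, input and siMettl3B; which Picard step was run, whether the libraries are inputs of an enrichment, and which siRNA sequence was used are not given in the sources used here. Per the labels' protocols, poly(A) RNA was selected.

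Counts were filtered with filterByExpr, scaled by TMM and tested with edgeR 4.0.16 (R 4.3.3; robust glmQLFit and glmQLFTest, all 6 libraries, no covariate). FDR values are Benjamini-Hochberg over all 15311 genes; the threshold was 0.05. The SE is the absolute log2 fold change over the square root of F. Alternatives used DESeq2 1.42.0, limma 3.58.1 (voom), other scalings and filters, a replicate block, genes without overlaps and each library left out. The fits were tested on simulated data with changes of 2-fold only, so that test does not cover falls as small as those of the set. Members and lists were chosen with earlier results of these data known. Named by rule were METTL3, MYCN, 5 fixed members, the 2 smallest FDR values of each role and the 3 largest called falls. The rule also covered called rises, but no rise of a member was called in the main fit. Also named were the 3 largest called changes each way among the other pathway genes whose mean log2 CPM reached 3 or more. Other members were added for completeness. Libraries of the same group differed by more than counting noise (chi-square per degree of freedom of 3.05 or more against about 1). Coordinates are those of the tables, or of GENCODE release 44 and RefSeq on GRCh38; release 44 puts 18982 symbols at the same place and 17 elsewhere.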

Additional observations from a re-analysis of the deposited data

How the results depend on the processing

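METTL3 was lower and called in every alternative run. It was kept in the fit on genes without overlaps, although 7.90% of its span is shared with TOX4. Restricting the fit to genes without overlaps, where fewer genes are tested, gave 3750 called genes in all and 9 members lower. Among the other pathway genes it gave 23 lower and 5 higher. Of the 9518 genes tested there, 19.9% were called lower. The share called higher, and how many of the other pathway genes were left in that fit, are not given here. Leaving out each library in turn, all called genes went from 4210 to 6394, members lower from 12 to 20, members higher from 0 to 2 (GAR1 and DDX10, without siControl replicate 3), other pathway genes lower from 22 to 43 and higher from 4 to 16, the member median from -0.19 to -0.15, and METTL3 from -0.74 to -0.69. Signs changed in 7 such values of 6 uncalled members: GAR1 without siControl replicate 2 (-0.0042), UTP4 without siControl replicate 1 (-0.0075) and siMETTL3 replicate 3 (-0.0042), WDR43 and MYBBP1A without siControl replicate 3 (0.033 and -0.064), BOP1 without siMETTL3 replicate 2 (-0.062) and RRP1 without siMETTL3 replicate 3 (0.015); the cause was not tested. The far ends of the same ranges were 0.27 for GAR1, 0.055 for UTP4, -0.18 for WDR43, 0.11 for BOP1, -0.11 for RRP1 and 0.12 for MYBBP1A. No called member changed sign. With all 6 libraries, the alternatives lost calls of 1 member, POLR1C, in 5 settings, and gained none. With the replicate number as a block, the same 17 members were called and all called genes were 6166, the member median was -0.15 and METTL3 had a log2 fold change of -0.71. Without the block, all called genes were 5786. Same-numbered libraries had deviations that correlated at 0.040, 0.049 and 0.067. Differently numbered libraries correlated at between -0.064 and 0.026, so the same-numbered values were the higher ones. All of these values were small and cannot settle whether the numbers pair the libraries. The main fit did not pair them.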
